A study of Mus musculus with 12 samples.

Results

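The Kcnq1ot1 imprinted domain lies on distal mouse chromosome 7 and comprises 10 of the 22548 genes measured. These are the antisense RNA Kcnq1ot1 and 9 protein-coding genes around it, namely Kcnq1, Cdkn1c, Slc22a18, Phlda2, Ascl2, Cd81, Tssc4, Tspan32 and Nap1l4. Kcnq1ot1 was chosen by its values, because every aged untreated sample listed it at its lowest value, and the other 9 genes were taken because they belong to the domain. RNA-seq was made of sorted long-term hematopoietic stem cells (HSCs) of C57BL/6 mice, with 4 samples of young HSCs (mice of 2 to 4 months, replicates 2 to 5), 5 of aged HSCs (mice of 20 to 26 months, replicates 0 and 2 to 5) and 3 of aged HSCs given CASIN (replicates 1 to 3). CASIN, an inhibitor of the small GTPase Cdc42, was used at 5 µM. All cells, the controls included, were kept for 16 h in a salt solution with serum at 3% O2. Each sample holds at least 200 cells according to the labels, whereas the methods of the study give a larger pool of cells per library and call the samples biological repeats. The labels do not tie a replicate to an animal, so p-values measure the spread between these samples only.

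Imprinted genes are expressed from the copy of 1 parent. On the paternal chromosome the long noncoding RNA Kcnq1ot1 is transcribed from a promoter inside an intron of Kcnq1, in the direction opposite to Kcnq1, and the RNA silences flanking genes in cis together with repressive histone marks. On the maternal chromosome this promoter is methylated, Kcnq1ot1 is silent, and Cdkn1c, Kcnq1, Slc22a18, Phlda2 and Ascl2 are expressed. Cd81, Tssc4 and Tspan32 are known to be imprinted mainly in the placenta. In HSCs the domain is known for Cdkn1c, a cyclin-dependent kinase (CDK) inhibitor that keeps stem cells quiescent.

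In the genome annotation (GENCODE M21, build mm10) Kcnq1ot1 occupied chr7:143203458-143296549 on the minus strand as 1 exon of 93092 bases. Its start lay in intron 11 of the Kcnq1 transcript with 16 exons, and its body overlapped 1 exon of that transcript. Kcnq1 itself spanned chr7:143106362-143427042 on the plus strand. Whether reads were counted by strand is not given in the sources used here, so reads of Kcnq1ot1 and of unspliced Kcnq1 RNA cannot be told apart. Along the chromosome, with the Kcnq1ot1 start as 0, Tssc4 started at -227.3 kb, Cd81 at -243.8 kb, Tspan32 at -291.5 kb and Ascl2 at -327.3 kb. On the other side Cdkn1c started at 164.5 kb, Slc22a18 at 177.2 kb, Phlda2 at 206.6 kb and Nap1l4 at 252.6 kb. The same limit of strand applied to Tssc4, which overlaps Trpm5, and to Cd81, which overlaps R74862.

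Kcnq1ot1 is annotated with 1 transcript, whose promoter is shown because the gene carries the pattern described below, from 250 bases before to 50 bases after the RefSeq start (build GRCm38.p6, chr7:143296498-143296797, minus strand). The promoter of Ascl2 (chr7:142969215-142969514, minus strand) is shown because it held as many CCAAT motifs. The promoter of 2700054A10Rik (chr17:13554045-13554344, minus strand) is shown because this noncoding RNA gene was the only other gene with the pattern of Kcnq1ot1 over the 12 samples. For this gene GENCODE places the start elsewhere, at base 13668891 of chromosome 17, and the window shown lies inside the gene as GENCODE draws it. Capitals mark CCAAT, a sequence known to be bound by the factor NF-Y, on the strand of the gene or, where the motif was on the opposite strand, its reverse complement ATTGG.
Kcnq1ot1: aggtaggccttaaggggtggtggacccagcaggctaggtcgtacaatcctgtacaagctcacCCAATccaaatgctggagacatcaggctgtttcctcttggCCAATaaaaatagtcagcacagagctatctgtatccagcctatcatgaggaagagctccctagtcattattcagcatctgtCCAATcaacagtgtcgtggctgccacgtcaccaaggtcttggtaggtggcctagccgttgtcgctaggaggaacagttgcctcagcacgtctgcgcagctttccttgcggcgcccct
Ascl2: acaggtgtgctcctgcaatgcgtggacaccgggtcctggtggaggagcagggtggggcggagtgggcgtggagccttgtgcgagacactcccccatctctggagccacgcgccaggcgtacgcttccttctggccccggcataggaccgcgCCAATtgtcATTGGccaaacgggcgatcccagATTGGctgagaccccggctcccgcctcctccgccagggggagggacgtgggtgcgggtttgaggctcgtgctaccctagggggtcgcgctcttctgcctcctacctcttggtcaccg
2700054A10Rik: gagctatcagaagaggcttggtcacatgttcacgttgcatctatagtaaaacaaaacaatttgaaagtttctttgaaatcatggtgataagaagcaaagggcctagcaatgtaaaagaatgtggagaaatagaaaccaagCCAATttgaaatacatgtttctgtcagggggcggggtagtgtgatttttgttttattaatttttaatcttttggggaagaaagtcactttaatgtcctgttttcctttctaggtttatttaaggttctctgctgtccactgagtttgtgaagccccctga

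The Kcnq1ot1 promoter held 3 CCAAT motifs, all on the strand of the gene, which began at positions -188, -148 and -67 from the start. At least 3 motifs on either strand were found in 3.4% of the 32851 RefSeq promoters of 300 bases, and at least 1 in 37.4%. The Ascl2 promoter also held 3 motifs, on both strands. The Phlda2, Tssc4 and 2700054A10Rik promoters held 1 each, and none was found in the windows of Cd81, Slc22a18 and Tspan32. No promoter in this table was matched for Kcnq1, Cdkn1c and Nap1l4. The Kcnq1ot1 promoter held 9 CpG dinucleotides against a median of 7 over all promoters, and 45.8% of promoters held as many or more. Ascl2, Cd81 and Tssc4 held 23 each and Phlda2 26, whereas Slc22a18 and Tspan32 held 2. These are descriptions of the sequence, and neither methylation nor binding was analysed here.

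The deposited values are log2 expression that the authors had brought to a common distribution (quantile normalization), with a highest value of 16.09 in every sample. No counts were analysed here, so the depth is unknown. In each sample many genes shared a lowest value, which was 0.67, 0.48, 0.43 and 0.65 in young replicates 2, 3, 4 and 5. It was 0.066, 0.018, 0.23, 0.22 and 0.16 in aged replicates 0, 2, 3, 4 and 5, and 0.63, 0 and 0.58 in CASIN replicates 1, 2 and 3. Between 6078 and 9673 genes stood above this value in young samples, 11463 to 17621 in aged samples, and 6845, 20013 and 7288 in the CASIN samples, of which replicate 2 stood apart. Hprt, a housekeeping gene of purine salvage, was above the lowest value in 2 of 12 samples and Rplp0, a ribosomal protein gene, in 6 of 12, so that a gene at this value is described only as listed there. Of 16 HSC markers Meis1 was above the lowest value in 12 of 12 samples (6.54 to 8.53) and Hlf in 11. Kit and Ly6a, which encode antigens used for the sort, and Slamf1 were above it in 4 of 12. For Kit and Ly6a these were 0 of 4 young, 3 of 5 aged and 1 of 3 CASIN samples each. Cd34 and Flt3, whose products the sort selects against, were above it in 6 and 7 of 12. Among the 22 markers of other cells in the table, Cd48, Prtn3 and Hbb-bs stood at the lowest value in all 12 samples, whereas Itgam (7.48 to 9.17), Cd4 and Cd8a were above it in all 12. The summed level of these 22 markers ranged from 38.1 to 48.2 in young, from 37.6 to 55.7 in aged and from 31.6 to 49.2 in CASIN samples, and that of the HSC markers from 30.8 to 49.7, from 27.9 to 42.9 and from 41.6 to 42.9. These sums include the lowest values, which were higher in young than in aged samples. Of the values of the 22 markers, 27.3%, 59.1% and 37.9% were above the lowest in young, aged and CASIN samples. For HSC markers the shares were 35.9%, 68.8% and 54.2%, and over all genes 34.3%, 62.6% and 50.5%. In these lists and 22 housekeeping genes none had an adjusted p under 0.05 (limma). With 1 common lowest value, groups did not overlap for Cd4 between young and aged samples. They did not overlap for Actb and Ctnnal1 between CASIN and aged samples, and for Meis1 between young and CASIN samples. Over all genes 2.35%, 2.31% and 2.3% did not overlap in these comparisons. As deposited, Ctnnal1 overlapped, with 0.63, 0.52 and 0.58 in CASIN samples and 0.58 and 0.76 in aged replicates 0 and 2. CASIN replicates 1 and 3 were at their lowest values. The part of such differences in the values of the domain was not tested. In bulk samples fewer cells of a type and less RNA per cell cannot be told apart.

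Kcnq1ot1 was among the highest genes of every young and CASIN sample and was listed at the lowest value in every aged sample. In young HSCs its log2 expression was 15.61, 15.93, 15.93 and 15.93 in replicates 2 to 5. In aged HSCs it was 0.066, 0.018, 0.23, 0.22 and 0.16 in replicates 0 and 2 to 5, which are the lowest values of these samples. In aged HSCs given CASIN it was 15.93 in each of the 3 samples. The young and CASIN samples thus did not overlap with the aged samples. Because this pattern chose the gene, it is a description with no test, and no fold is given against a group that is listed at the lowest value.

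By rank, Kcnq1ot1 was the second highest gene of 3 young and all 3 CASIN samples, and the third highest of young replicate 2. In quantile-normalized values a rank carries a fixed value, namely 16.09 for rank 1, 15.93 for rank 2 and 15.61 for rank 3. The difference between young replicate 2 and the others was thus 1 rank. Gm17821 held rank 1 in all 12 samples, and A630089N07Rik, which held rank 2 in the 5 aged samples, held rank 2, 3 or 4 in the others.

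Kcnq1ot1 was chosen as apart from aged HSCs in both young and CASIN-treated aged HSCs, so the likeness of these groups is partly set by the choice and is not tested. The difference, young minus CASIN, was -0.079 on the log2 scale. It came from young replicate 2 alone, at rank 3, while the other young and all CASIN samples held the same value at rank 2. A value above rank 1 cannot occur, so a higher level in either group could not have been seen beyond that rank.

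Among the highest genes Kcnq1ot1 stood alone in being listed at the lowest value. Over the 12 samples 24 genes were among the 20 highest of at least 1 sample. The other 23 never fell below 11.4 or below rank 38, and their range over the 12 samples had a median of 1.12 and reached 2.72 at most (Rn45s). Among them were the predicted genes Gm17821, Gm7609 and Gm9159 and, by name, the chemosensory receptor genes or pseudogenes Olfr613, Olfr856-ps1 and Vmn1r58. Whether ranks this high reflect amounts of RNA in HSCs was not tested. Kcnq1ot1 ranged from 0.018 to 15.93. Of the 198 genes that were among the 100 highest of any sample, 11 (5.6%) were at the lowest value in some sample. Of the 4838 genes among the 1000 highest, 3263 (67.4%) were. A high level in some samples and the lowest value in others was thus frequent among genes of moderate rank and held for 1 gene at the rank of Kcnq1ot1.

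**Figure D1:**
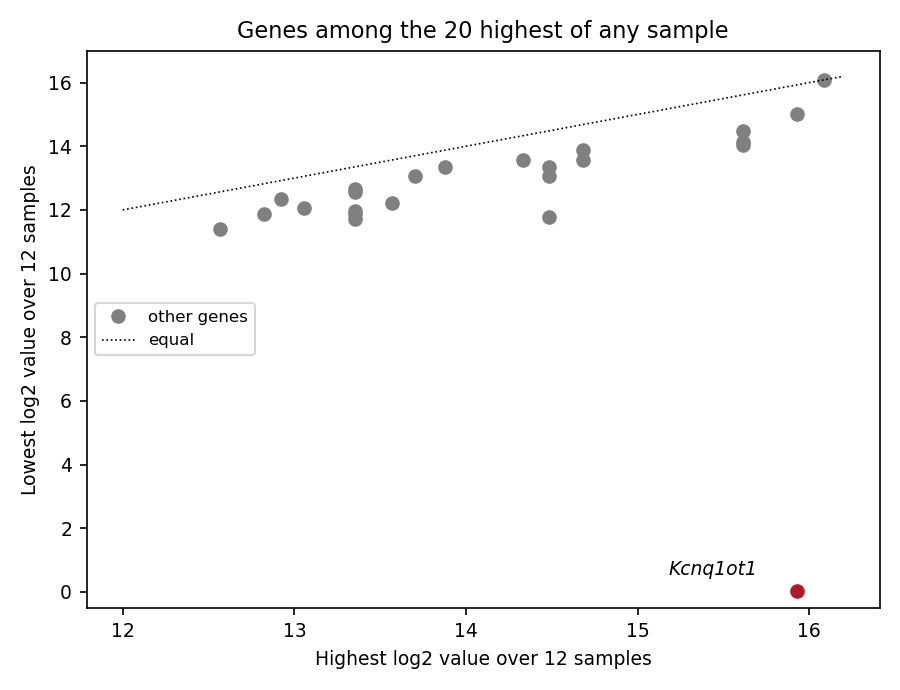
Lowest against highest log2 value over the 12 samples for each of the 24 genes that were among the 20 highest of any sample, 1 point per gene (red, Kcnq1ot1; grey, the other 23 genes). The dotted line marks equal values; the grey points lie at 11.4 or above on the vertical axis and Kcnq1ot1 lies at 0.018.

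What the deposited unit was before quantile normalization, and whether it was per length, is not given in the sources used here, and levels of different genes are compared below by sample and not by transcript.

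The pattern of Kcnq1ot1 was shared by 1 other gene. Standing at the lowest value in each of the 5 aged samples and above it in the 7 others held for 2 genes of the table, 0.00887% of all genes, and both are given without a test since this rule used the contrast. The second gene, 2700054A10Rik, lies on chromosome 17. Its log2 expression was 7.51, 7.89, 7.88 and 7.34 in young HSCs, the lowest value in each aged sample, and 8.10, 8.46 and 9.86 in CASIN samples. It was thus high in the same 7 samples, at a lower value than Kcnq1ot1. All young values of 2700054A10Rik were below all CASIN values, where 2.3% of all genes did not overlap between these groups. This was not tested, since the rule used these samples. The converse pattern, above the lowest value in all 5 aged samples and at it in all others, held for 3 of the 22548 genes, Msl3l2, Rbm4 and Rnf122. Rbm4 was 0.43 and 0.48 in aged replicates 0 and 2, and Msl3l2 was 0.48 in aged replicate 2. These values are under the lowest values of young replicates 2, 3 and 5, so that they could not occur there. Rnf122 was 3.48 to 6.23 in aged HSCs.

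The gene most like Kcnq1ot1 by Pearson correlation over the 12 samples was 2700054A10Rik as well (r = 0.989). The next 4, Amigo3, Kncn, Lect2 and Ndufb8, had an r of 0.931 each, but each was above the lowest value in 1 sample only. Their correlation describes the lowest values of the samples, which themselves correlated with Kcnq1ot1 at r = 0.70. With genes at the lowest value set to 0 in every sample, an alternative added after seeing the data, 2700054A10Rik came first again (r = 0.990). It was followed by Smco4 (0.863), Kcnk1 (0.862), 1700051A21Rik (0.859) and Kbtbd2 (0.855), which were above the lowest value in 12 of 12 samples. The 12 points share 3 groups, so these values describe the group pattern.

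The 9 other genes of the domain were at the lowest value in most samples. Of their values, 4 of 36 (11.1%) were above it in young HSCs, 13 of 45 (28.9%) in aged HSCs and 11 of 27 (40.7%) in CASIN samples. Over all genes of the table the shares were 34.3%, 62.6% and 50.5%. In CASIN replicate 2 all 9 genes were above the lowest value, which was 0 there. Without this sample, an alternative added after seeing the data, 2 of 18 values (11.1%) were above it in the CASIN group, against 31.3% over all genes. By sample 2, 1, 1 and 0 of the 9 genes were above the lowest value in young HSCs, 4, 5, 3, 0 and 1 in aged HSCs and 1, 9 and 1 in CASIN samples. The samples with the most domain genes above the lowest value, CASIN replicate 2 and aged replicates 2 and 0, were also those with the most genes of the whole table above it (88.8%, 78.1% and 71.7%).

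**Figure D2:**
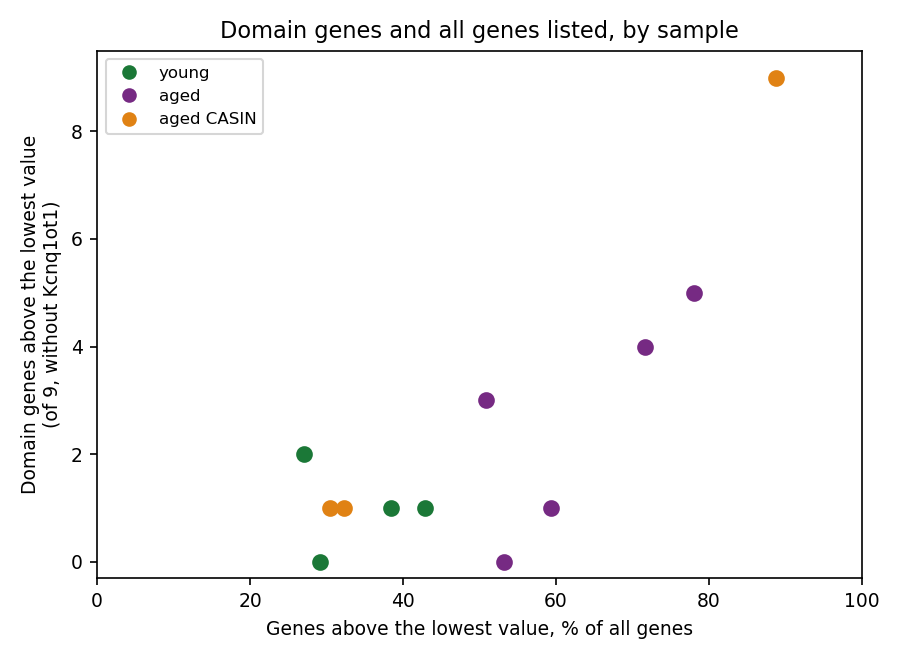
Number of the 9 domain genes besides Kcnq1ot1 above the lowest value of the sample (vertical axis) against the percentage of all 22548 genes above it (horizontal axis), 1 point per sample, coloured by group. Aged samples lie further to the right than young samples, and CASIN replicate 2, with 9 genes at 88.8%, lies apart from the other CASIN samples, with 1 gene each.

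**Figure D3:**
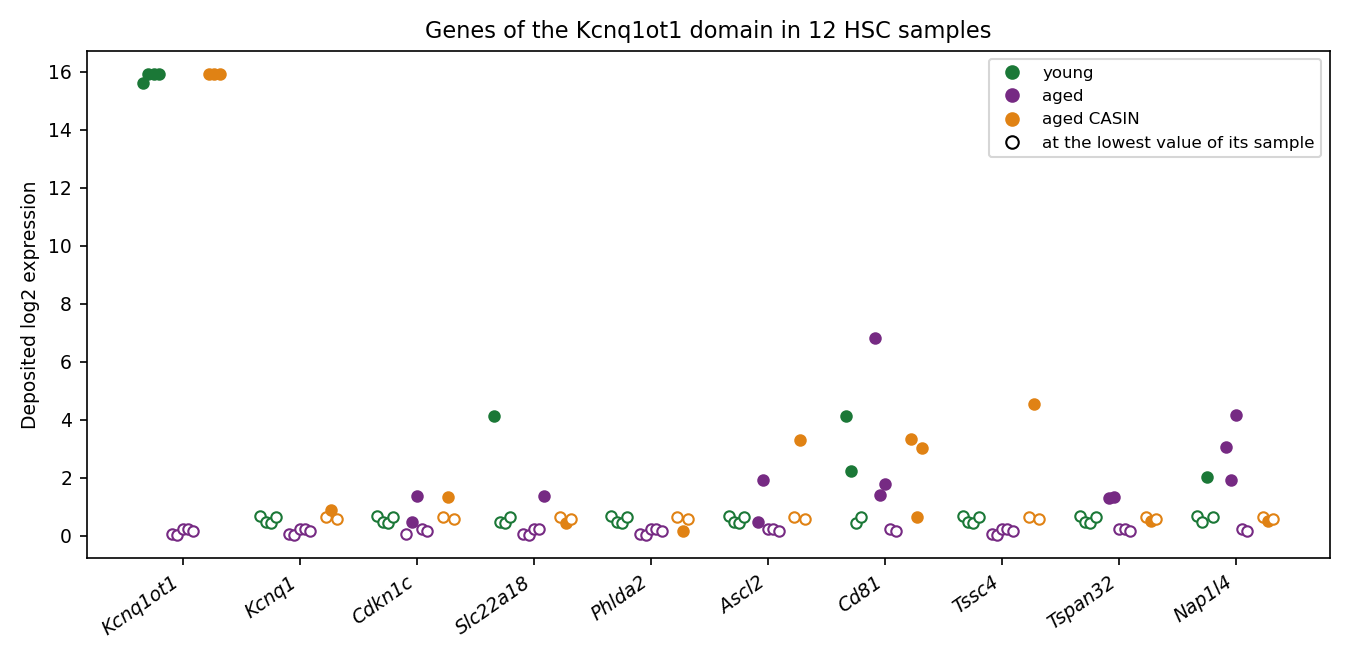
Deposited log2 expression of the 10 domain genes in the 12 samples, 1 point per sample, coloured by group, with open circles at the lowest value of the sample. Kcnq1ot1 is at 15.61 to 15.93 in young and CASIN samples and at the lowest value in aged samples, while most points of the other genes are open and the highest is Cd81 in aged replicate 0 at 6.82.

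Kcnq1 encodes a subunit of a voltage-gated potassium channel and hosts Kcnq1ot1. It was above the lowest value in 1 of 12 samples, at 0.90 in CASIN replicate 2. It thus stood at the lowest value in the 6 other samples where Kcnq1ot1 was high and also in the 5 where Kcnq1ot1 was at the lowest value. No difference is given for Kcnq1, since neither young nor aged HSCs had a value above the lowest.

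Cdkn1c, the CDK inhibitor of the domain, was listed at the lowest value in all 4 young samples. In aged HSCs it was 0.48 in replicate 2 and 1.36 in replicate 3, and it was at the lowest value in the other 3. In CASIN samples it was 1.33 in replicate 2 and at the lowest value in replicates 1 and 3. The groups overlapped. The difference between CASIN and aged samples was 0.39 (SE 0.41, adjusted p = 0.948, limma). It was 0.14 without CASIN replicate 2, 0.61 without aged replicate 3 and 0.076 with 1 common lowest value. Without CASIN replicate 2 all treated samples left were at the lowest value, so the 0.14 is not read as a difference of expression.

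Phlda2, a growth-restraining gene of the placenta, was above the lowest value only in CASIN replicate 2, at 0.15. This is under the lowest value of all 4 young samples, so that a value of this size could not occur there. Ascl2, a transcription factor of the basic helix-loop-helix family, was at the lowest value in the 4 young samples. It was 0.48 and 1.90 in aged replicates 0 and 2 and 3.29 in CASIN replicate 2, and at the lowest value in the remaining samples. The difference between CASIN and aged samples was 0.90 (SE 0.66, adjusted p = 0.948, limma), and without CASIN replicate 2, the 1 treated sample above the lowest value, it was 0.0013. This last value compares treated samples that were all at their lowest values with the aged samples.

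Slc22a18, a transporter gene, was 4.11 in young replicate 2, 1.36 in aged replicate 5 and 0.45 in CASIN replicate 2. It was at the lowest value in the 9 other samples. The difference between young and aged HSCs was 1.04 (SE 0.73, 95% interval -0.58 to 2.65, adjusted p = 0.764, limma) and rested on 1 sample: without young replicate 2 it was 0.14. Without that sample the young group held lowest values only, so the 0.14 is not read as a difference of expression. Between CASIN and aged samples it was 0.17 (SE 0.80, adjusted p = 0.993). Between young and CASIN samples it was 0.87 (SE 0.83, adjusted p = 0.9995).

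Cd81, a gene of the tetraspanin membrane proteins, was above the lowest value in 8 of 12 samples, more than any other gene of the domain. In young HSCs it was 4.11 and 2.22 in replicates 2 and 3 and at the lowest value in replicates 4 and 5. In aged HSCs it was 6.82, 1.39 and 1.78 in replicates 0, 2 and 3 and at the lowest value in replicates 4 and 5. In CASIN samples it was 3.34, 0.65 and 3.03. Aged replicate 0 was the highest and the 3 groups overlapped. There it held rank 1963, the best rank of the 9 genes in any sample. The difference between young and aged HSCs was -0.22 (SE 1.37, 95% interval -3.26 to 2.81, adjusted p = 0.978, limma). That between CASIN and aged samples was 0.27 (95% interval -3.04 to 3.57, adjusted p = 0.994), and that between young and CASIN samples -0.49 (SE 1.56, adjusted p = 0.9995). The sign of all 3 depended on the processing and on single samples: without aged replicate 0 the young and aged difference was 0.96, and without CASIN replicate 1 the CASIN and aged difference was -0.23.

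Tspan32 encodes a tetraspanin of hematopoietic cells. It was 1.29 and 1.32 in aged replicates 0 and 2 and 0.51 in CASIN replicate 2, and at the lowest value in the 9 other samples, the 4 young samples among them. The difference between CASIN and aged samples was -0.073 (SE 0.41, adjusted p = 0.994, limma). Its sign changed without aged replicate 0 (0.087) or aged replicate 2 (0.095).

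Tssc4 was above the lowest value only in CASIN replicate 2, at 4.54, the highest value of the 9 genes in that sample. It was the single domain gene with an unadjusted p under 0.05 in a comparison, that of CASIN and aged samples, and its adjusted p was 0.948 (limma). With 1 of 3 treated samples above the lowest value the groups overlapped, and without that sample nothing is left to compare.

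Nap1l4, a histone chaperone gene, was 2.03 in young replicate 4. In aged HSCs it was 3.06, 1.91 and 4.16 in replicates 0, 2 and 3, and at the lowest value in replicates 4 and 5. In CASIN samples it was 0.51 in replicate 2 and at the lowest value in the others. The aged group held the 2 highest values and the groups overlapped. The difference was -0.94 (SE 0.81, 95% interval -2.73 to 0.84, adjusted p = 0.798, limma) between young and aged HSCs. It was -1.33 (SE 0.88, 95% interval -3.28 to 0.62, adjusted p = 0.948) between CASIN and aged samples, and 0.39 (SE 0.92, adjusted p = 0.9995) between young and CASIN samples. Single samples moved these values: without aged replicate 3 the first 2 were -0.38 and -0.77, and without young replicate 4 the third was 0.032. Young replicate 4 was the only young sample above the lowest value, so the 0.032 compares young lowest values with the CASIN samples.

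None of these genes was called, and since most of their values stood at the lowest value, a change among those could not be seen. In the comparison of age 0 of the 9 genes passed an adjusted p of 0.05 (limma, adjusted over 22548 genes), where 0.0177% of all genes did. At an unadjusted p under 0.05 there were 0 of 9, against 5.33% of all genes, and 0 to 2 of 9 over the alternative settings. With 1 common lowest value for all samples, the groups did not overlap for 0 of 9 genes and for 2.35% of all genes. The lowest values themselves were set apart between young and aged samples. For the 1061 genes at the lowest value in both groups, 3 of them in the domain (Kcnq1, Phlda2 and Tssc4), the median difference was 0.42 from this alone.

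Between CASIN-treated and untreated aged HSCs 0 of the 9 genes had an adjusted p under 0.05, against 0.0222% of all genes. At an unadjusted p under 0.05 there was 1 (Tssc4), against 4.4% of all genes, and 0 to 2 over the alternative settings. The groups did not overlap for 0 of 9 genes and for 2.31% of all genes. Between young and CASIN samples 0 of the 10 genes had an adjusted p under 0.05, where 0% of all genes did. Kcnq1ot1, counted among the 10, was chosen as high in both groups, so its part in this count is no test. There were 0 of 10 at an unadjusted p under 0.05, against 4.29% of all genes, and 0 of 10 without overlap, against 2.3%. The 3 comparisons share samples and are not independent.

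The median difference of the 9 genes was 0.10 between young and aged HSCs, against -0.017 over all genes. It was 0.31 between CASIN and aged samples, against -0.038 over all genes. Over the 10 genes it was -0.11 between young and CASIN samples, against 0.092 over all genes. These medians hold many values set by the lowest value of the samples. The genes flanking Kcnq1ot1 thus had no called difference in either direction between groups with Kcnq1ot1 high and at the lowest value.

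**Figure D4:**
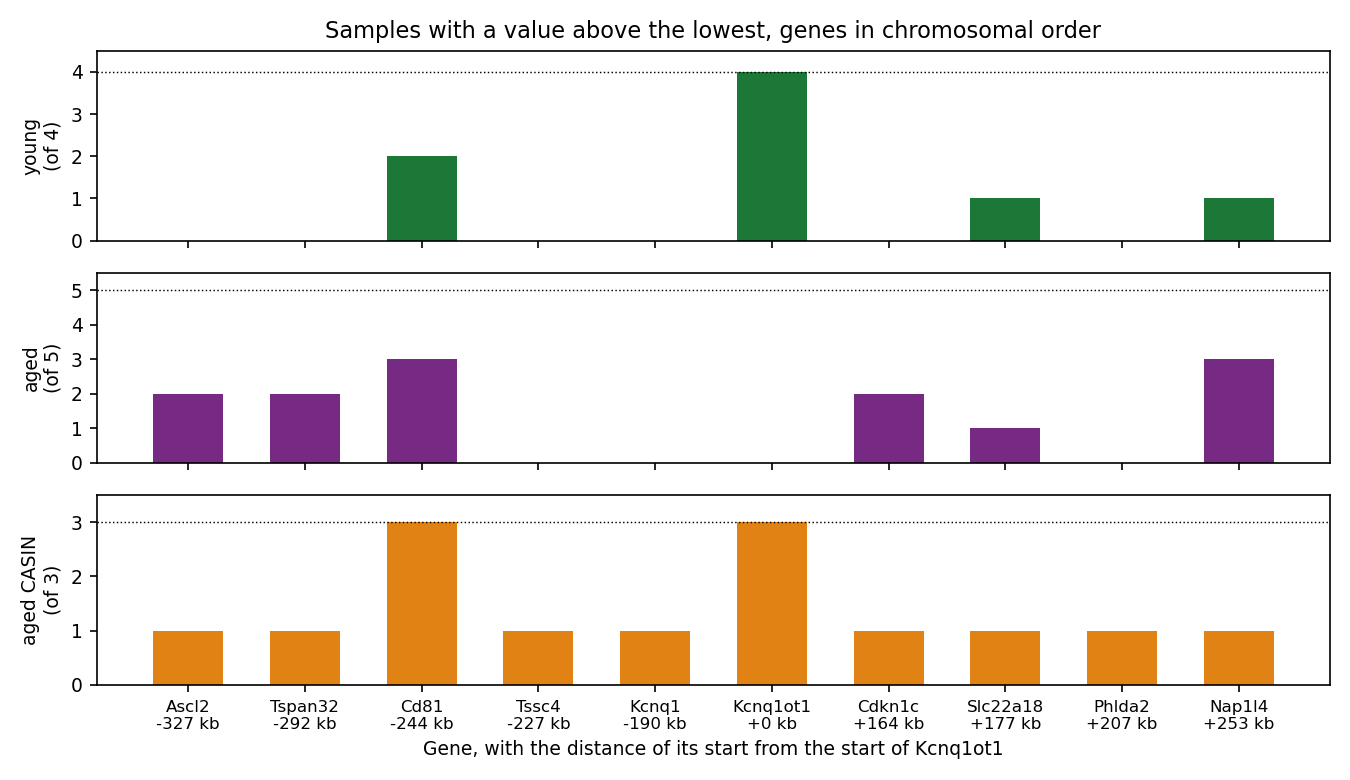
Number of samples above the lowest value (vertical axis; the dotted line marks all samples of the group) for the 10 domain genes in chromosomal order, with the distance of each start from the start of Kcnq1ot1 in kb, in young, aged and CASIN groups. Kcnq1ot1 stands at 4 of 4, 0 of 5 and 3 of 3, while genes on both sides range from 0 to 3 samples.

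The wider neighbourhood was examined with the 32 genes of the table that start within 1000 kb of Kcnq1ot1 and are not of the domain. Their values were above the lowest in 29.7% of cases in young, 61.3% in aged and 51.0% in CASIN samples, near the shares of all genes. The shares of the 9 domain genes (11.1%, 28.9% and 40.7%) were lower than those of their neighbours in each group, and this difference was not tested. The neighbours with the highest means were above the lowest value in all 12 samples. They were Mrgpre (8.73 to 10.04), Igf2, the paternally expressed insulin-like growth factor gene of the adjoining imprinted cluster (5.94 to 8.40), and R74862 (3.35 to 7.64), which overlaps Cd81 on the opposite strand. In each of these 3 genes the groups overlapped.

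No neighbour had an adjusted p under 0.05 in any comparison (limma). At an unadjusted p under 0.05, there were 1 of 32 between young and aged HSCs (Lsp1, lower in young), 1 between CASIN and aged samples (Krtap5-4, higher in CASIN) and 2 between young and CASIN samples (Krtap5-4 and Krtap5-5, both at the lowest value in all young samples), where 5.33%, 4.4% and 4.29% of all genes passed. Their median differences were 0.022, 0.30 and -0.27. Krtap5-5, a keratin-associated protein gene, was the 1 of 32 neighbours whose groups did not overlap, between young and CASIN samples, against 2.3% of all genes. With 1 common lowest value, it was at this value in the 4 young samples and above it in the 3 CASIN samples, at 6.29, 0.17 and 5.26. The value of 0.17 is under the lowest value of every young sample, so that such a value could not occur there, and no difference is given.

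Factors known to set imprints or to act with Kcnq1ot1 in silencing were taken as a list of 22 genes, among them the histone methyltransferases Ehmt1 and Ehmt2, Polycomb proteins, DNA methyltransferases and Hnrnpk, an RNA-binding protein. None had an adjusted p under 0.05 in any comparison. At an unadjusted p under 0.05, Hnrnpk had a higher and Cbx7 and Dnmt3b a lower value in the young group against the aged group, Hnrnpk was higher and Dnmt3a lower in CASIN than in aged samples, and Zfp57 was lower in young than in CASIN samples. These are 3, 2 and 1 of 22 genes, where 5.33%, 4.4% and 4.29% of all genes passed the same threshold. Groups did not overlap for 2, 1 and 1 of the 22 genes, against 2.35%, 2.31% and 2.3% of all genes. The median differences were -0.20, 0.22 and -0.44. Of the values of this list, 51.1%, 82.7% and 68.2% were above the lowest in young, aged and CASIN samples. Over all genes these shares were 34.3%, 62.6% and 50.5%, so the lower values in young HSCs include values listed at the lowest.

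Hnrnpk was 6.56, 5.15, 3.58 and 6.69 in young HSCs. It was 0.67, 3.92 and 3.82 in aged replicates 0, 2 and 4 and at the lowest value in aged replicates 3 and 5. It was 8.37, 7.23 and 7.81 in CASIN samples. The CASIN samples were above all aged samples, by 6.04 (SE 1.09, adjusted p = 0.282, limma), and above all young samples, where young minus CASIN was -2.31 (SE 1.14, adjusted p = 0.9995). Neither difference passed the threshold.

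Cbx7, a Polycomb reader protein, was at the lowest value in the 4 young samples. It was 4.62, 1.78, 4.47, 1.30 and 6.84 in aged HSCs and 5.15 in CASIN replicate 2 only. Dnmt3b, a de novo DNA methyltransferase, was 2.21 in young replicate 4 and at the lowest value in the other young samples. It was 4.74, 6.43, 6.07, 2.79 and 3.24 in aged HSCs. In CASIN samples Dnmt3b was 5.80 in replicate 2 and at the lowest value in replicates 1 and 3. Young and aged samples did not overlap in either gene, and neither passed the adjusted threshold (limma). Dnmt3a (0.58 to 7.73) and Ehmt2 (2.92 to 7.64) had the highest means of the list and overlapped between groups.

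CDK inhibitors and regulators of quiescence were described in the same way, since Cdkn1c is one of them. Of 19 genes 0 had an adjusted p under 0.05 in any comparison. At an unadjusted p under 0.05 there were 0 in young against aged HSCs, 1 higher (Cdkn2c) and 1 lower (Foxo1) in CASIN than in aged samples, and 0 in young against CASIN samples. Of all genes 5.33%, 4.4% and 4.29% passed the same threshold. The median differences were 0.10, 0.018 and 0.14. Ccnd2, Foxo1 and Cdkn1a had the highest means. Cdkn1a, which encodes the CDK inhibitor p21, was above the lowest value in 1 of 4 young samples (6.95 in replicate 4), in 5 of 5 aged samples (3.59, 0.86, 5.64, 7.24 and 5.14) and in 1 of 3 CASIN samples (6.49 in replicate 2). The groups overlapped.

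Long noncoding RNAs, several of them imprinted, were a list of 27, of which 26 were in the table. Kcnq1ot1 and 2700054A10Rik were taken into the list for their values and were left out of its counts. Of the 24 others 0 had an adjusted p under 0.05 in any comparison (limma). At an unadjusted p under 0.05 there was 1 between young and aged HSCs (Tug1), 0 between CASIN and aged samples and 2 between young and CASIN samples (Rian and Tug1), against 5.33%, 4.4% and 4.29% of all genes. The median differences of the 24 were -0.34, 0.31 and -0.39. Jpx (9.48 to 11.12) and Meg3, a maternally expressed RNA of another imprinted domain (7.01 to 9.40), were above the lowest value in all 12 samples. H19, the maternally expressed RNA beside Igf2, differed by -0.0031 between young and aged HSCs (SE 1.73, adjusted p = 0.9996, limma). H19 was above the lowest value in 2 of 4 young and 5 of 5 aged samples. Airn, an antisense RNA that silences the Igf2r domain in cis as Kcnq1ot1 does its own, differed by -1.74 (SE 1.22, adjusted p = 0.764). Airn was above the lowest value in 1 of 4 young and 5 of 5 aged samples.

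Tug1 was 5.01, 4.16, 2.48 and 3.59 in young HSCs, 5.86, 5.90, 6.07, 6.94 and 6.54 in aged HSCs and 6.87, 7.77 and 7.62 in CASIN samples. Young samples were below all others, with differences of -2.45 against aged (SE 0.52, adjusted p = 0.427, limma) and of -3.61 against CASIN samples (SE 0.60, adjusted p = 0.207). Neither passed the threshold. Ftx was 4.85 to 7.72 in young and 8.35 to 8.83 in CASIN samples, without overlap (adjusted p = 0.9995, limma). Over all genes 2.35% did not overlap between young and aged and 2.3% between young and CASIN samples. Neither RNA had the pattern of Kcnq1ot1, in which the CASIN samples were with the young samples and the aged samples apart.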

How the data were processed

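RNA-seq values of 12 samples of sorted long-term HSCs (lineage-negative, c-kit+, Sca1+, CD34-/low, Flk2-) were analysed: 4 young, 5 aged and 3 aged CASIN samples, grouped by the sample labels. An amplification kit for single cells served to make the libraries. The authors trimmed the reads, aligned them to mm10 with TopHat (per the submitters' processing notes) and used Cufflinks. What the authors deposited are log2 values for 22548 genes, already quantile-normalized, which were used as deposited. The table gives no counts, so neither depth nor counting error is known. No sample column was left unused.

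The test was limma 3.58.1 in R 4.3.3 (lmFit, contrasts.fit and eBayes, two-sided), in one fit of 3 groups without filter or covariates, with Benjamini-Hochberg adjustment over all genes at 0.05, and was tested on simulated data. Genes at the lowest value entered with that value. Differences of single genes are given only where both groups had a sample above it in the main fit. With a sample left out, a group can hold lowest values only. Non-overlap was counted with 1 common lowest value, because the lowest values differ between groups. Tables and figures used Python 3.11.15, pandas 2.3.3 and matplotlib 3.10.9, positions GENCODE M21 (mm10) and promoters RefSeq (GRCm38.p6). Promoters were matched for 7 of 10 genes by symbol.

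The members and lists were chosen with earlier results of these data known. Named are all 10 genes, neighbours and list genes with an adjusted p under 0.05 or non-overlapping groups and the 3 with the highest means, the 5 genes most correlated with Kcnq1ot1 and those sharing its pattern; Cdkn1a is given in full, and H19 and Airn are named, after their values were seen. Alternatives were 1 common lowest value, centring, a filter (above the lowest value in at least 3 samples), a pseudocount of 0.1, limma-trend with robust eBayes, array weights, fits of 2 groups, the replicate block and each sample left out.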

Additional observations from a re-analysis of the deposited data

Results flagged for a closer look

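Of 20 groups of 4 or 5 samples of domain genes tested for a sample far from the others, 6 held one. Chance gives about 1 in 20 groups where values are continuous, which does not apply here, since in most of these groups several samples were tied or listed at the lowest value and 1 sample above it gives a share near 1 by construction. The value is the gap to the nearest sample as a share of the range of the group. In young HSCs, Kcnq1ot1 in replicate 2 (15.61, share 1.0) was 1 rank under the other 3, which were tied. Slc22a18 in young replicate 2 (4.11, share 0.939) and Nap1l4 in young replicate 4 (2.03, share 0.879) were above 3 samples at their lowest value. In aged HSCs, Slc22a18 in replicate 5 (1.36, share 0.841) was the 1 sample above the lowest value. Ascl2 in aged replicate 2 (1.90, share 0.817) and Cd81 in aged replicate 0 (6.82, share 0.757) were higher than the other aged samples.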

How the results depend on the processing

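Under all alternatives run, 0 of the domain genes tested (9 without Kcnq1ot1 in the comparisons with aged HSCs, 10 between young and CASIN samples) had an adjusted p under 0.05 in each of the 3 comparisons, and this held with each sample left out (0 to 0). With an unadjusted p under 0.05 there were 0 between young and aged HSCs, but 1 with a pseudocount of 0.1 and 2 with limma-trend. Between CASIN and aged samples there were 0 to 2 over the settings, with 2 under these same settings. Between young and CASIN samples there were 0, but 1 with limma-trend or without CASIN replicate 1 or 3. Centring on genes detected in all 12 samples moved the median difference of all genes from -0.017 to 0.44 (young against aged), from -0.038 to 0.31 (CASIN against aged) and from 0.092 to 0.19 (young against CASIN). Of the differences of single genes, these changed sign. Cd81, young against aged, was 0.23 when centred, 0.082 with a pseudocount of 0.1, 0.96 with the replicate block and -0.97 to 0.96 with a sample left out. Cd81, CASIN against aged, was -0.053 with the replicate block and -0.23 to 1.45 with a sample left out. Cd81, young against CASIN, was 1.02 with the replicate block and -1.33 to 0.012 with a sample left out. Slc22a18, CASIN against aged, was -0.12 with 1 common lowest value and -0.22 with the replicate block; young against CASIN, it was -0.028 to 1.20 with a sample left out, the lowest without young replicate 2. Tspan32, CASIN against aged, was 0.28 when centred, 0.16 with a pseudocount of 0.1 and -0.19 to 0.095 with a sample left out. Kcnq1ot1, young against CASIN, was 0.024 when centred. Without a change of sign, Nap1l4 was -1.38 to -0.38 (young against aged), -1.77 to -0.77 (CASIN against aged) and 0.032 to 0.55 (young against CASIN) with a sample left out, Cdkn1c 0.14 to 0.61 and Ascl2 0.0013 to 1.36 (both CASIN against aged), Slc22a18 0.14 to 1.37 (young against aged) and 0.080 to 0.42 (CASIN against aged). The cause was not tested. Where the sample left out was the only one of its group above the lowest value, that group held lowest values only. Such a difference is not read as one of expression. Samples with the same replicate number had a median correlation of deviations of 0.0030 over all genes. For genes detected in all 12 samples the correlation ran from -0.15 (young and CASIN replicate 2) to 0.13 (aged and CASIN replicate 2). With so few pairs this cannot tell whether equal numbers mark shared processing, and the labels do not say. The replicate block left 0 of these domain genes called. Over all genes it called 2 (4 without it) between young and aged HSCs, 1 (5 without it) between CASIN and aged and 0 between young and CASIN samples. The depth is unknown, and the lowest value was higher where more genes shared it (0.67 for 16470 genes in young replicate 2, 0.018 for 4927 in aged replicate 2). It is thus not read as a limit of detection. A value under it could not occur in that sample, so small values cannot be compared between samples.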
